A study of Mus musculus with 15 samples.

Results

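The genes described are the metalloproteinases that cut extracellular matrix and cell-surface proteins, together with their tissue inhibitors. They were taken from the table of 23244 gene entries by symbol, as every Mmp gene with a number, every Timp gene, every numbered Adam gene and every numbered Adamts gene, with no use of their values. This gave 79 entries, of which 23 were Mmp, 4 Timp, 33 Adam and 19 Adamts genes. RNA-Seq was performed on optic tissue that mouse embryonic stem cells form in SFEBq culture (free-floating aggregates grown without serum), with 3 biological replicates in each of 5 groups. All groups came from the Rx::GFP knock-in line (EB5 Rx::GFP+/-, with GFP reporting the retinal gene Rx), which limits them to a single stem cell line, and all aggregates had been cultured with Matrigel. Day 10 Rx::GFP+ tissue was GFP-positive neural retina epithelium cut out with forceps and collected without further culture. Day 12 +Fgf and Day 15 +Fgf tissues were such explants kept until Day 12 or Day 15 with human bFgf at 5 ng/mL and 10% FBS, and are labelled neural retina. Day 12 +Wnt and Day 15 +Wnt tissues were kept with the GSK3 inhibitor CHIR99201 at 3 uM for the initial 24 h and at 1 uM from then on, and are labelled retinal pigmented epithelium. Serum was given in the +Fgf arm and not in the +Wnt arm, so effects of bFgf and of serum cannot be told apart in any comparison between those arms. No group was kept to Day 12 or Day 15 in medium without either stimulus, so time in culture and stimulus cannot be told apart in comparisons with Day 10.

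Metalloproteinases hold a zinc ion at the active site and are made as zymogens whose pro-domain must be removed. Matrix metalloproteinases (MMPs) are secreted or, in the membrane-type members, anchored at the cell surface, and together they cut collagens, laminins and many signalling proteins, while TIMPs bind and block the active site. ADAMs are membrane proteins best known for shedding the extracellular part of ligands, receptors and adhesion molecules, including Notch and EGF family ligands, and several lack a working catalytic site and act in adhesion. ADAMTS enzymes are secreted into the matrix, where different subgroups cut proteoglycans such as versican or trim procollagens. In the eye, these enzymes and TIMP3 in particular are known from the turnover of Bruch's membrane under the pigment epithelium.

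Values are read counts normalized for library size, called CPM. Between 12556998 and 16175450 reads lay on genes in each library, and 1 read was worth 0.0620 to 0.0764 CPM. On Day 15, marker sums followed the labels of the arms. There, 5 neural retina genes summed to 1045 to 1183 CPM with +Fgf and 8.07 to 10.1 CPM with +Wnt. The sums of 5 pigment epithelium genes were 218.5 to 283 CPM with +Fgf and 4982 to 6476 CPM with +Wnt. In Day 10 tissue the pigment epithelium sum, 813.2 to 1136 CPM, lay above the neural retina sum of 621.1 to 631.1 CPM. Of the 79 genes, 42 reached 1 CPM in at least 3 libraries and were tested (10 Mmp, 3 Timp, 11 Adam and 18 Adamts genes), 22 lay below that level with some reads, and 15 had no read in any library. Mmp3 and Mmp10 passed only through the Day 12 +Fgf libraries, and Adamts2 only through the Day 15 +Wnt libraries. Their direction in comparisons with those groups was thus tied to the filter. A gene is said to rise or fall only where limma's adjusted p was under 0.05 across all 13845 genes tested; log2 differences are of log2(CPM + 0.3), which understates changes of low genes, and are given with their standard error. In these bulk tissues, fewer cells of a type and less RNA per cell cannot be told apart.

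Transcript levels of different genes were compared per kb of exon. On that scale Adam10, the main sheddase of Notch and cadherins, had the highest mean of all 79 genes in all 5 groups, at 35.6 ± 0.91 CPM per kb (SD, n = 3) in Day 10 tissue and 42 to 47.8 in the others. Adam9, Mmp11, Mmp14 and Timp2 made up the rest of the highest 5 genes in every group, in changing order. Mmp14 was second in both +Fgf groups, at 29.2 ± 3.59 CPM per kb on Day 12 and 26.5 ± 1.27 on Day 15. Timp2 was second in Day 15 +Wnt tissue, at 32.6 ± 2.38 CPM per kb. Mmp9 entered the highest 6 genes only in Day 12 +Fgf tissue, at 16.2 ± 4.06 CPM per kb, Adam11 only in Day 15 +Fgf tissue, at 10.8 ± 0.67, and Timp3 only in Day 15 +Wnt tissue, at 12.0 ± 0.13.

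From Day 10 to Day 12, +Fgf tissue gained transcripts of most of these genes. In Day 12 +Fgf against Day 10 tissue, 55.7% of all genes were called, and 32 of the 42 were. Of these, 26 were higher and 6 lower, against 27.9% and 27.8% of all genes. The median log2 difference was 0.42 against -0.0021 over all genes. Past a log2 difference of 1, where 9.34% of all genes lay (5.71% higher and 3.63% lower), 11 of the 42 were higher and none was lower. These were Mmp9, Mmp3, Mmp10, Mmp14, Mmp24, Timp1, Adam12, Adamts18, Adamts4, Adamts12 and Adamts16. Mmp3 and Mmp10 had passed the filter through the Day 12 +Fgf libraries alone, so they could count only as higher here.

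In Day 12 +Wnt against Day 10 tissue, 60.2% of all genes were called, and 22 of the 42 were. Of these, 14 were higher and 8 lower, against 30.6% and 29.6% of all genes, and quantile normalization turned this split to 9 higher and 12 lower. Beyond 1 on the log2 scale, where 10.5% of all genes lay, Mmp24, Adamts16 and Adamts17 were higher (6.56% of all genes) and Adamts19 and Mmp10 were lower (3.89%).

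From Day 12 to Day 15, the 2 arms moved apart. In Day 15 +Fgf against Day 12 +Fgf tissue, 57.1% of all genes were called, and 29 of the 42 were. Of these, 9 were higher and 20 lower, against 27.2% and 29.9% of all genes, with a median of -0.29 against -0.019. Past a log2 difference of 1, where 12.3% of all genes lay, 5 were higher (8.44% of all genes) and 9 lower (3.84%). In Day 15 +Wnt against Day 12 +Wnt tissue, 68.0% of all genes were called, and 28 of the 42 were. Of these, 21 were higher and 7 lower, against 32.5% and 35.5% of all genes, with a median of 0.27 against -0.021. Quantile normalization gave 17 higher and 11 lower there. Beyond 1 on the log2 scale, where 16.7% of all genes lay, 13 were higher (13.4% of all genes) and 1, Adamts8, was lower (3.39%). Adamts2, which was among the 13, had passed the filter through the Day 15 +Wnt libraries alone.

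Between the arms, the balance turned with the day. In Day 12 +Fgf against Day 12 +Wnt tissue, 51.5% of all genes were called, and 28 of the 42 were. Of these, 22 were higher and 6 lower, against 26.3% and 25.2% of all genes. Past a log2 difference of 1, where 12.7% of all genes lay, 11 were higher (6.15% of all genes) and 3 lower (6.53%). In Day 15 +Fgf against Day 15 +Wnt tissue, 68.7% of all genes were called, and 31 of the 42 were. Of these, 10 were higher and 21 lower, against 38.0% and 30.6% of all genes. Beyond 1 on the log2 scale, where 19.7% of all genes lay, 4 were higher (6.93% of all genes) and 12 lower (12.8%).

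The change from Day 12 to Day 15 itself differed between the arms for 47.9% of all genes and for 29 of the 42. The change was more positive with +Fgf for 4 and more negative for 25, against 27.0% and 20.9% of all genes. Past a log2 difference of 1, where 14.2% of all genes lay, 2 were more positive (4.31% of all genes) and 13 more negative (9.92%). The RNA integrity number was lower in every Day 15 +Fgf library than in every Day 12 +Fgf and every Day 15 +Wnt library. With it as a covariate, 16 of the 42 genes and 3591 of all 13845 were called from Day 12 to Day 15 in +Fgf tissue, and 18 of the 42 and 3842 of all genes in the difference between the arms. In Day 15 +Fgf against Day 15 +Wnt tissue, all alternative settings together called 6362 to 10166 genes in all and 23 to 35 metalloproteinase genes.

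**Figure D1:**
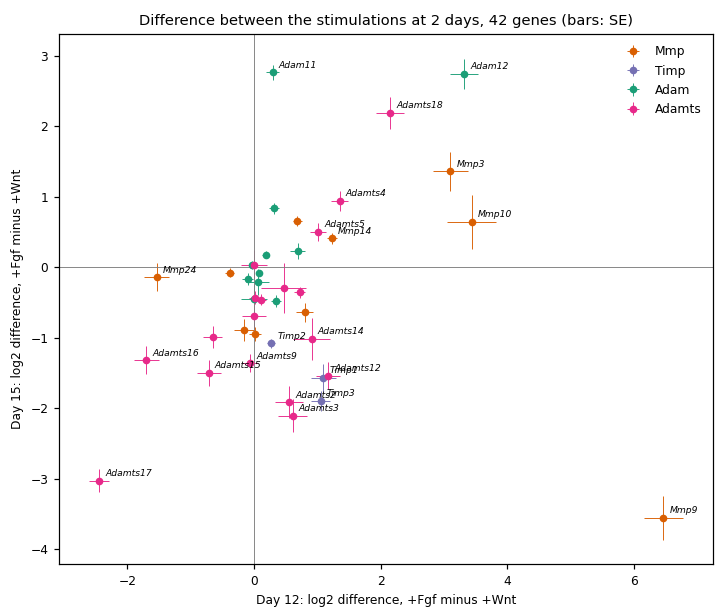
Log2 difference between +Fgf and +Wnt tissue on Day 12 (x axis) and on Day 15 (y axis) for the 42 tested genes, coloured by family, with standard errors as bars; genes past a log2 difference of 1 on either day are named. Adam12, Adamts18 and Mmp3 lie high in +Fgf tissue on both days, Adamts17 and Adamts16 high in +Wnt tissue on both days, and Mmp9 at 6.46 on Day 12 and -3.55 on Day 15.

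Among the membrane-type MMPs, Mmp14 was the most abundant per kb in every group and tracked the +Fgf arm, while Mmp24 appeared with time in both arms. Mmp14 encodes MT1-MMP, a collagenase that also activates pro-MMP2. It stood at 67.6, 62.0 and 74.8 CPM in the Day 10 libraries, 166, 159 and 199 in Day 12 +Fgf and 69.9, 78.2 and 73.2 in Day 12 +Wnt. On Day 15 its level was 166, 157 and 151 CPM with +Fgf and 120, 116 and 120 CPM with +Wnt. The Day 12 +Fgf libraries lay above all Day 10 and Day 12 +Wnt libraries, and the Day 10 and Day 12 +Wnt libraries overlapped. Mmp14 was 2.55-fold higher in Day 12 +Fgf than in Day 10 tissue (log2 difference 1.35 ± 0.08, adjusted p = 9.1e-10) and 2.35-fold higher than in Day 12 +Wnt tissue (1.23 ± 0.08, adjusted p = 1.1e-09). It rose in +Wnt tissue only from Day 12 to Day 15 (0.68 ± 0.08, adjusted p = 7.6e-07), after which it was still lower than in Day 15 +Fgf tissue (0.41 ± 0.08, adjusted p = 0.00018).

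Mmp24 encodes MT5-MMP, known from the nervous system. Its levels were 0.273, 0.669 and 0.458 CPM in Day 10 tissue, 1.58, 1.34 and 0.958 in Day 12 +Fgf and 3.84, 3.97 and 5.10 in Day 12 +Wnt. By Day 15 it stood at 21.2, 19.0 and 18.5 CPM with +Fgf and 18.9, 23.0 and 23.1 CPM with +Wnt. It rose earlier in +Wnt tissue and reached overlapping levels in both arms by Day 15, where the log2 difference was -0.14 ± 0.19 (adjusted p = 0.53). By Day 12, with 0.3 added to each value, it had risen 6.10-fold with +Wnt (2.61 ± 0.19, adjusted p = 1.3e-08) and 2.1-fold with +Fgf (1.07 ± 0.19, adjusted p = 0.00021). It was then lower with +Fgf than with +Wnt (-1.54 ± 0.19, adjusted p = 5.0e-06). From Day 12 to Day 15 it rose 12.6-fold in +Fgf and 4.80-fold in +Wnt tissue (3.66 ± 0.19 and 2.26 ± 0.19, adjusted p = 2.3e-10 and 3.0e-08), and the difference of 1.40 ± 0.28 between these changes passed the test (adjusted p = 0.00055). Reads of Mmp24 cannot be separated from those of BC029722, whose exons overlap it on the opposite strand, because the strand setting of the counting is not given in the sources used here.

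The other membrane-type genes moved less. Mmp16 (MT3-MMP) was highest in Day 15 +Wnt tissue, at 31.1, 29.5 and 26.2 CPM against 13.9, 15.3 and 15.5 in Day 15 +Fgf, with no overlap (log2 difference -0.94 ± 0.09, adjusted p = 1.5e-07). Mmp17 (MT4-MMP) also rose in +Wnt tissue from Day 12 to Day 15 (0.63 ± 0.16, adjusted p = 0.0018), from 5.64 to 6.49 CPM to 7.57 to 11.2 CPM. Mmp15 (MT2-MMP) was lower in Day 12 +Fgf than in Day 10 tissue, at 30.0 to 34.8 against 43.2 to 45.5 CPM (-0.46 ± 0.07, adjusted p = 2.5e-05). Mmp25 stayed at 7 reads or fewer in every library. Together the 6 membrane-type genes held 56.0% ± 2.21 (SD, n = 3) of the summed Mmp level per kb in Day 10 tissue, 43.9% ± 2.21 in Day 12 +Fgf, 57.4% ± 0.38 in Day 12 +Wnt, 58.7% ± 2.41 in Day 15 +Fgf and 55.0% ± 2.58 in Day 15 +Wnt tissue.

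Of the 2 gelatinases, which digest denatured collagen and basement membrane collagen, Mmp9 switched between the arms and Mmp2 did so to a smaller extent. Mmp9 was at 0.204, 0.334 and 0.382 CPM in the Day 10 libraries, 69.0, 41.3 and 62.2 in Day 12 +Fgf and 0.440, 0.209 and 0.397 in Day 12 +Wnt. The Day 15 libraries lay at 2.43, 0.824 and 2.90 CPM with +Fgf and 29.7, 25.4 and 20.3 CPM with +Wnt. The Day 12 +Fgf and Day 15 +Wnt libraries lay far above the other 9, and the Day 10 and Day 12 +Wnt libraries overlapped near the level of a few reads. From Day 10 to Day 12 Mmp9 rose with +Fgf (log2 difference 6.55 ± 0.31, adjusted p = 1.4e-10) and differed by 0.09 ± 0.31 with +Wnt (adjusted p = 0.82). With 0.3 added to each value, Mmp9 fell 26.4-fold from Day 12 to Day 15 in +Fgf tissue (log2 difference -4.72 ± 0.31, adjusted p = 2.8e-09). On the same scale it rose 39.3-fold in +Wnt tissue (5.29 ± 0.31, adjusted p = 3.4e-10). It was higher with +Fgf than with +Wnt on Day 12 (6.46 ± 0.31, adjusted p = 4.9e-11) and lower on Day 15 (-3.55 ± 0.31, adjusted p = 3.0e-08). The difference between these changes after Day 12, -10.0 ± 0.44 on the log2 scale (adjusted p = 9.5e-11), was the most negative among the 42 genes. Its share of the summed Mmp level per kb was 0.21% ± 0.06 in Day 10 tissue, 18.4% ± 3.56 in Day 12 +Fgf, 0.24% ± 0.08 in Day 12 +Wnt, 0.84% ± 0.44 in Day 15 +Fgf and 10.6% ± 1.68 in Day 15 +Wnt tissue.

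Mmp9 is also made by macrophages, and a list of 10 macrophage and microglia genes, of which 9 had an entry under the listed symbol, was read beside it. Its summed level was 1.28 to 1.78 CPM in Day 12 +Fgf tissue and 20.7 to 24.1 CPM in Day 15 +Wnt tissue, against 0.85 to 3.74 CPM in the other groups. In Day 15 +Wnt tissue Csf1r gave 20.1 ± 1.46 CPM and Cd68 1.75 ± 0.24 CPM of this sum, Aif1, C1qa and Itgam had some reads, and Ptprc, Emr1, Tyrobp and Fcgr1 had no read in any of the 3 libraries. Csf1r and Cd68 were the 2 genes of the list that were tested, and both were higher in Day 15 than in Day 12 +Wnt tissue (32.5% of all genes). In Day 12 +Fgf tissue Aif1, C1qa, Emr1 and Fcgr1 had no read. Neither tested gene was higher there than in Day 10 tissue and 1 was lower, against 27.9% and 27.8% of all genes. The part of such cells in the level of Mmp9 was not tested.

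Mmp2 was at 12.8, 15.4 and 15.1 CPM in Day 10 tissue, 22.4, 27.3 and 25.0 in Day 12 +Fgf and 14.8, 12.2 and 15.6 in Day 12 +Wnt. Its Day 15 values were 21.7, 15.1 and 21.3 CPM with +Fgf and 33.0, 30.4 and 26.8 CPM with +Wnt. It was high in the same 2 groups as Mmp9 but never below 12 CPM, and Day 15 +Fgf replicate 2 lay within the range of Day 10 tissue. Mmp2 rose in +Wnt tissue from Day 12 to Day 15 (log2 difference 1.07 ± 0.14, adjusted p = 2.8e-06) and fell in +Fgf tissue (-0.37 ± 0.14, adjusted p = 0.027), and these changes differed by -1.44 ± 0.19 (adjusted p = 1.3e-05). A list of 9 fibroblast and mesenchyme genes, all detected in every group, summed to 77.5 to 104 CPM in Day 10 tissue, 165 to 292 in Day 12 +Fgf, 119 to 160 in Day 12 +Wnt, 128 to 162 in Day 15 +Fgf and 566 to 680 in Day 15 +Wnt tissue. Of the 9 genes, 8 were higher and none lower in Day 15 than in Day 12 +Wnt tissue, against 32.5% and 35.5% of all genes. In Day 12 +Fgf against Day 10 tissue, 4 were higher and none lower (27.9% and 27.8% of all genes). In Day 12 +Wnt against Day 10 tissue, 4 were likewise higher and none lower (30.6% and 29.6%). Between the arms on Day 12, 3 were higher and 3 lower with +Fgf (26.3% and 25.2%). The sum was thus highest in Day 15 +Wnt tissue, as were Mmp2, Timp3, Adamts2 and Adamts14 but not Adamts3, and next highest in Day 12 +Fgf tissue, where Mmp9, Mmp14 and the Timp genes also rose from Day 10. Its part in these results was not tested.

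**Figure D2:**
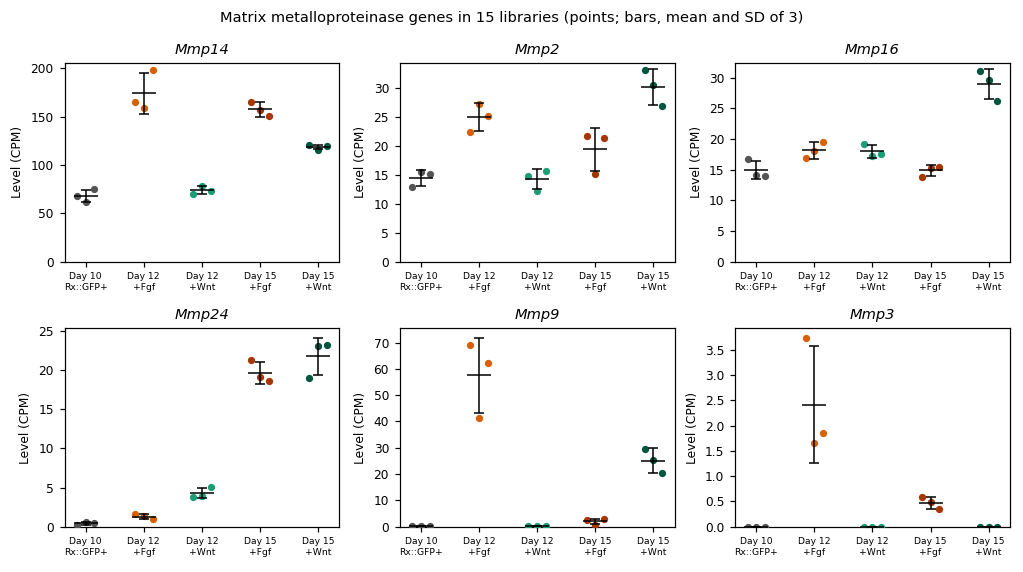
Level in CPM (y axis, from 0) of 6 Mmp genes in the 15 libraries, by group (x axis); points are libraries, and bars give the mean and SD of 3. Mmp9 lies between 41.3 and 69.0 CPM in Day 12 +Fgf, between 20.3 and 29.7 in Day 15 +Wnt and at 2.90 or less elsewhere, and Mmp3 is at 0 outside the +Fgf arm.

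The stromelysins Mmp3 and Mmp10 and the collagenases belong to a run of 10 Mmp genes side by side on chromosome 9 (mm10, 7272514 to 7699585, 427 kb), in the order Mmp13, Mmp12, Mmp1b, Mmp3, Mmp1a, Mmp10, Mmp8, Mmp27, Mmp20 and Mmp7. Their promoters are shown because 7 of the 10 share a motif: the 100 bases before an annotated start hold TGACTCA or its reverse complement TGAGTCA, the letters bound by AP-1 (Fos and Jun dimers). The sequences are from RefSeq (build GRCm38.p6, the coordinates of mm10), run 5′ to 3′ on the gene's strand and end at the base before the start, with the motif in capitals. Mmp1b is on the minus strand and the others are on the plus strand. Mmp12 and Mmp7 each have another annotated start, whose stretch holds no match and is not shown.
Mmp13 (chr9:7272414-7272513): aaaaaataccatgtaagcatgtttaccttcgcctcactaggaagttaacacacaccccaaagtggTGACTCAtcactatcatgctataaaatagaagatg
Mmp12, the second of its 2 starts (chr9:7347274-7347373): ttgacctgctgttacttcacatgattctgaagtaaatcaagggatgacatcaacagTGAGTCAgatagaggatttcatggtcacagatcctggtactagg
Mmp1b (chr9:7388027-7388126): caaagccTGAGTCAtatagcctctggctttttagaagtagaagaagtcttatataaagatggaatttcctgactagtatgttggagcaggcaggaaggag
Mmp3 (chr9:7445722-7445821): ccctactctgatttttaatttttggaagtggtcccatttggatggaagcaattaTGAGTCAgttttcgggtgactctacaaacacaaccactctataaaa
Mmp1a (chr9:7464041-7464140): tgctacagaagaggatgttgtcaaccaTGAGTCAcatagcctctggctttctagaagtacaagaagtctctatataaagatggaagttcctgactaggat
Mmp10 (chr9:7502242-7502341): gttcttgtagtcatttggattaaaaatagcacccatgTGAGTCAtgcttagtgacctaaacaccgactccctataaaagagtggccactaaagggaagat
Mmp7 (chr9:7691990-7692089): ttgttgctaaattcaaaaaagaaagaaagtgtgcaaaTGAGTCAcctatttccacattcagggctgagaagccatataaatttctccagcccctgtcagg

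Counted back from the start, the motif began at base -35 in Mmp13, -44 in Mmp12, -93 in Mmp1b, -46 in Mmp3, -73 in Mmp1a and -63 in both Mmp10 and Mmp7. In windows from 250 bases before to 50 bases after a start, TGACTCA on either strand was found in 1709 of 32851 windows (5.2%). Of the 79 genes, 49 have a window in the table, with 54 windows between them. The letters were found in 10 of these 54 windows, each of a different gene. Of these genes 7 belong to the run, and the other 3 are Adam19, Adam1b and Adam29. Mmp8, Mmp27 and Mmp20 had no match in their windows, and Mmp12 and Mmp7 had none in the window of their other start. The TATA letters TATAAA, searched on the gene's strand, were in the windows of 8 of the 10 genes of the run and in 8.32% of all windows. A gene was counted where any of its windows matched, so counts of genes are not on the same base as shares of windows. A match is a description of letters and not a measure of binding.

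The run had 343 reads over the 3 Day 12 +Fgf libraries, against 20 in Day 10, 5 in Day 12 +Wnt, 34 in Day 15 +Fgf and 19 in Day 15 +Wnt tissue. Its 10 genes together had 80, 129 and 134 reads (lowest, median and highest library) in Day 12 +Fgf tissue, 5 to 9 reads in Day 10, 1 or 2 in Day 12 +Wnt, 7 to 16 in Day 15 +Fgf and 5 to 7 in Day 15 +Wnt libraries. In Day 12 +Fgf tissue 6 of the genes had reads in all 3 libraries and Mmp27 had 1 read in 2 of them, while Mmp8, Mmp20 and Mmp7 had none in any library of the series. The 7 genes with reads in that group and the 7 with the motif share 6 members. Mmp7 had the motif and no read, and Mmp27 had its few reads and no motif. With 7 of 10 genes in each set a large overlap was bound to occur, and a link between motif and reads was not tested.

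Mmp3, stromelysin-1, was listed at 3.74, 1.66 and 1.85 CPM in Day 12 +Fgf tissue and 0.590, 0.481 and 0.353 in Day 15 +Fgf tissue, and had no read in the other 9 libraries. Taking 3 reads per library as the limit that a count of 0 allows, it was at least 11.4-fold higher in Day 12 +Fgf than in Day 10 tissue and at least 12.2-fold higher than in Day 12 +Wnt tissue, and it fell from Day 12 to Day 15 in +Fgf tissue (log2 difference -1.74 ± 0.28, adjusted p = 5.8e-05). With the RNA integrity number as a covariate, that fall did not pass the test (adjusted p = 0.074). On Day 15 it was at least 2.3-fold higher with +Fgf than with +Wnt. Mmp10, stromelysin-2, was at 2.73, 2.23 and 5.11 CPM in Day 12 +Fgf tissue, 0.613, 0.334 and 0.153 in Day 10, 0.590, 0 and 0.283 in Day 15 +Fgf and at 1 read or fewer in each +Wnt library. Against the limit of 3 reads per library, it was at least 16.9-fold higher in Day 12 +Fgf than in Day 12 +Wnt tissue. On the other scale, with 0.3 added to each value, it rose 5.41-fold from Day 10 to Day 12 with +Fgf (log2 difference 2.43 ± 0.38, adjusted p = 5.4e-05). It then fell 6.43-fold with +Fgf after Day 12 (-2.69 ± 0.38, adjusted p = 1.6e-05). Its fall from Day 10 to Day 12 in +Wnt tissue (-1.0 ± 0.38, adjusted p = 0.033) was lost without Day 10 replicate 1 (adjusted p = 0.14), Day 10 replicate 2 (0.067), Day 12 +Wnt replicate 2 (0.078) or Day 12 +Wnt replicate 3 (0.079).

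The other genes of the run were at the edge of detection. Mmp13, collagenase-3, had 4 to 9 reads per library in Day 12 +Fgf tissue, none in Day 10 tissue, 1 at most in Day 12 +Wnt and Day 15 +Fgf and 1 to 4 in Day 15 +Wnt libraries. Mmp12, the macrophage elastase, had 5 to 12 reads in Day 12 +Fgf and 6 at most elsewhere. Mmp1a had 3 to 10 reads and Mmp1b 1 to 5 reads per Day 12 +Fgf library, with none in the other 12 libraries. In a fit without the filter on low values, Mmp13 (log2 difference 1.20 ± 0.17, adjusted p = 4.6e-05), Mmp1a (1.02 ± 0.18, adjusted p = 0.00028), Mmp12 (1.06 ± 0.24, adjusted p = 0.0020) and Mmp1b (0.68 ± 0.14, adjusted p = 0.00095) were higher in Day 12 +Fgf than in Day 10 tissue. Exons of Mmp12 and Mmp1b overlap on opposite strands, so their reads are uncertain.

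**Figure D3:**
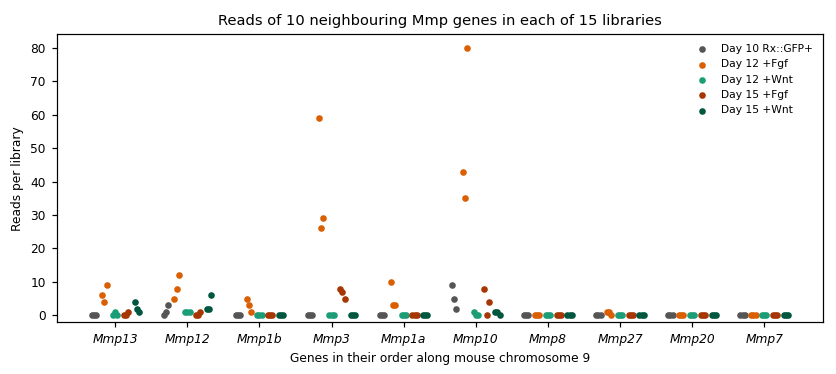
Reads per library (y axis) of the 10 Mmp genes that lie side by side on chromosome 9, in gene order (x axis), with each library as a point coloured by group. Day 12 +Fgf libraries reach 59 reads for Mmp3 and 80 reads for Mmp10, and no library of another group has more than 9 reads of any of these genes.

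The remaining Mmp genes lie elsewhere. Mmp11, stromelysin-3, which is activated inside the cell by furin, was at 33.8 to 37.4 CPM in Day 10 tissue, 54.9 to 62.0 in Day 12 +Fgf and 35.2 to 37.7 in Day 12 +Wnt. On Day 15 its level was 54.7 to 64.3 CPM with +Fgf and 35.6 to 38.1 CPM with +Wnt. It was higher in the +Fgf arm on both days, with no overlap, and the log2 differences from +Wnt tissue of 0.68 ± 0.07 and 0.66 ± 0.07 (adjusted p = 3.6e-07 and 2.6e-07) left a change between days of -0.02 ± 0.10 (adjusted p = 0.86). Its exons overlap Chchd10 on the opposite strand. Below the filter, Mmp23 reached 26 reads in a Day 12 +Fgf library and Mmp28 26 reads in a Day 15 +Wnt library, and Mmp19 had 3 to 15 reads in all libraries. Mmp28 rose in +Wnt tissue from Day 12 to Day 15 in the fit without a filter (log2 difference 1.34 ± 0.29, adjusted p = 0.00093), from 4 to 6 reads to 10 to 26 reads. Mmp21 had at most 1 read.

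The inhibitors were higher in the +Fgf arm on Day 12 and in the +Wnt arm on Day 15. All 3 tested Timp genes were higher in Day 12 +Fgf than in Day 10 tissue (27.9% of all genes). All 3 were also higher in Day 12 +Fgf than in Day 12 +Wnt tissue (26.3%). By Day 15 all 3 were lower in +Fgf than in +Wnt tissue (30.6%), each by more than 1 on the log2 scale (12.8%). The change from Day 12 to Day 15 was more negative in +Fgf tissue for each of them (20.9%).

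Timp3 binds to the matrix and inhibits ADAMs as well as MMPs. It was at 18.5, 20.7 and 18.9 CPM in Day 10 tissue, 22.6, 27.1 and 28.0 in Day 12 +Fgf and 14.0, 10.2 and 13.1 in Day 12 +Wnt. By Day 15 it stood at 20.1, 26.4 and 33.1 CPM with +Fgf and 98.2, 97.8 and 96.2 CPM with +Wnt. The Day 15 +Wnt libraries stood at about the same level and above all others. Timp3 was higher with +Fgf than with +Wnt on Day 12 (log2 difference 1.05 ± 0.14, adjusted p = 1.2e-05) and 3.72-fold lower on Day 15 (-1.90 ± 0.14, adjusted p = 5.0e-09). In +Wnt tissue Timp3 fell from Day 10 to Day 12 (log2 difference -0.64 ± 0.14, adjusted p = 0.0012) and then rose 7.74-fold (2.95 ± 0.14, adjusted p = 4.4e-11), whereas in +Fgf tissue the later change was 0.01 ± 0.14 (adjusted p = 0.97). Its exons overlap Syn3 on the opposite strand, so reads of Syn3 could be included.

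Timp2, which takes part in the activation of pro-MMP2 by MMP14, was at 45.1, 39.1 and 40.3 CPM in Day 10 tissue, 65.3, 66.5 and 69.9 in Day 12 +Fgf and 58.7, 53.4 and 55.3 in Day 12 +Wnt. The Day 15 libraries lay at 60.5, 57.3 and 61.8 CPM with +Fgf and 138, 120 and 124 CPM with +Wnt. It rose in both arms by Day 12 and again only in the +Wnt arm, 2.27-fold (log2 difference 1.18 ± 0.06, adjusted p = 1.5e-10), after which it was lower with +Fgf than with +Wnt (-1.08 ± 0.06, adjusted p = 2.4e-10). Timp1 had its highest level in Day 12 +Fgf tissue, at 8.30, 7.01 and 10.2 CPM, and its lowest in Day 15 +Fgf tissue, at 1.77, 1.37 and 1.91. Its levels were 3.48, 2.87 and 3.67 CPM in Day 10, 3.15, 3.83 and 4.50 in Day 12 +Wnt and 6.27, 4.18 and 6.45 in Day 15 +Wnt tissue. Timp1 rose 2.41-fold from Day 10 to Day 12 with +Fgf (log2 difference 1.27 ± 0.20, adjusted p = 4.6e-05), to a level above Day 12 +Wnt tissue (1.09 ± 0.20, adjusted p = 0.00019). It fell 4.42-fold in +Fgf tissue from Day 12 to Day 15 (log2 difference -2.14 ± 0.20, adjusted p = 1.2e-07), while its rise in +Wnt tissue (0.51 ± 0.20, adjusted p = 0.029) rested on overlapping values, and turned to a negative difference that was not called after quantile normalization. On Day 15 Timp1 was lower with +Fgf than with +Wnt (-1.57 ± 0.20, adjusted p = 2.2e-06). Timp4 had 4 to 6 reads per Day 15 +Wnt library, no read in either Day 12 group, and 1 and 4 at most in Day 10 and Day 15 +Fgf tissue.

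Summed per kb, the Timp level was 0.41 ± 0.03 of the Mmp level in Day 10 tissue (SD of the ratio, n = 3), 0.34 ± 0.02 in Day 12 +Fgf, 0.48 ± 0.02 in Day 12 +Wnt, 0.30 ± 0.03 in Day 15 +Fgf and 0.76 ± 0.05 in Day 15 +Wnt tissue. Day 15 +Wnt libraries lay at 0.71 to 0.79, above all others, and Day 12 +Fgf and Day 15 +Fgf libraries, at 0.324 to 0.357 and 0.272 to 0.331, overlapped. The ratio compares transcript levels and gives no measure of protein or activity.

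**Figure D4:**
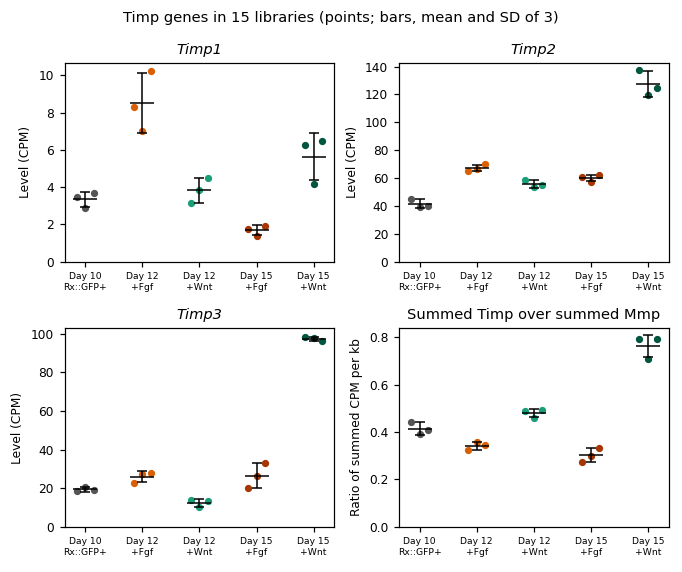
Level in CPM of Timp1, Timp2 and Timp3, and the ratio of the summed Timp to the summed Mmp level per kb of exon (y axes, from 0), in 15 libraries by group (x axes); points are libraries, and bars give the mean and SD of 3. Timp2, Timp3 and the ratio are highest in Day 15 +Wnt tissue, and Timp1 is highest in Day 12 +Fgf tissue.

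Of the 11 tested Adam genes, 2, Adam12 and Adam11, passed a log2 difference of 1 in any comparison, and the broadly used sheddases moved less. Adam10 lay between 170 and 254 CPM in all 15 libraries and was higher in Day 12 +Fgf than in Day 10 tissue by 0.42 ± 0.05 on the log2 scale (adjusted p = 2.1e-06). Adam17, the TNF-alpha converting enzyme, lay between 63.2 and 80.9 CPM, and its differences stayed within ±0.30, with the lowest value in Day 15 +Fgf and the highest in Day 12 +Fgf tissue. Adam9 lay between 60.7 and 83.6 CPM and was lower on Day 15 than on Day 12 in both arms (log2 difference -0.18 ± 0.06, adjusted p = 0.013, with +Fgf and -0.24 ± 0.06, adjusted p = 0.0011, with +Wnt). Adam17 overlaps Iah1 on the opposite strand.

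Adam12, which is known from myoblast and trophoblast fusion and from shedding of EGF family ligands, was at 2.79, 1.40 and 2.75 CPM in Day 10 tissue, 12.7, 12.3 and 17.5 in Day 12 +Fgf and 1.13, 0.974 and 1.32 in Day 12 +Wnt. Its Day 15 values were 64.0, 48.3 and 41.3 CPM with +Fgf and 7.69, 7.68 and 6.52 CPM with +Wnt. The +Fgf libraries of each day lay above the +Wnt libraries of that day without overlap. It was 9.94-fold higher with +Fgf on Day 12 (log2 difference 3.31 ± 0.22, adjusted p = 1.9e-09) and 6.68-fold higher on Day 15 (2.74 ± 0.22, adjusted p = 8.5e-09). From Day 10 to Day 12 it rose 5.66-fold with +Fgf (2.50 ± 0.22, adjusted p = 9.7e-08) and fell with +Wnt (-0.81 ± 0.22, adjusted p = 0.0040). It rose in both arms from Day 12 to Day 15, 3.55-fold with +Fgf (1.83 ± 0.22, adjusted p = 2.2e-06) and 5.28-fold with +Wnt (2.4 ± 0.22, adjusted p = 5.4e-08), and the difference of -0.57 ± 0.31 between these rises did not pass the test (adjusted p = 0.14).

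Adam11, Adam22 and Adam23 encode neural members without a working catalytic site, which bind LGI proteins at synapses. Adam11 was at 15.8, 17.7 and 15.1 CPM in Day 10 tissue, 18.3, 14.6 and 17.8 in Day 12 +Fgf and 13.3, 14.1 and 13.6 in Day 12 +Wnt. On Day 15 its level was 63.1, 63.2 and 56.5 CPM with +Fgf and 9.80, 8.20 and 8.28 CPM with +Wnt. It was near its Day 10 level in Day 12 +Fgf tissue (log2 difference 0.06 ± 0.10, adjusted p = 0.66), and then rose 3.58-fold with +Fgf (1.84 ± 0.10, adjusted p = 3.2e-10) and fell with +Wnt (-0.63 ± 0.10, adjusted p = 3.5e-05). The difference of 2.47 ± 0.14 between these changes (adjusted p = 1.8e-09) was the most positive among the 42 genes, and on Day 15 Adam11 was 6.77-fold higher with +Fgf (2.76 ± 0.10, adjusted p = 6.7e-13). Adam22 also peaked in Day 15 +Fgf tissue, at 57.4, 51.1 and 50.5 CPM against 29.0, 30.4 and 29.3 in Day 15 +Wnt (log2 difference 0.84 ± 0.08, adjusted p = 6.8e-08). Adam23 was highest in Day 10 tissue, at 24.2, 27.1 and 29.0 CPM, and fell in both arms by Day 12 (-0.72 ± 0.09, adjusted p = 4.4e-06, with +Fgf and -0.62 ± 0.09, adjusted p = 1.8e-05, with +Wnt).

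The other tested Adam genes were of low or middle level. Adam19, a sheddase of neuregulins, rose with +Fgf by Day 12, from 13.5 to 17.7 CPM to 29.3 to 31.2 CPM (log2 difference 0.94 ± 0.12, adjusted p = 5.0e-06). Adam15 was highest in Day 15 +Wnt tissue, at 27.7 to 29.4 CPM against 18.3 to 21.5 in Day 15 +Fgf (-0.48 ± 0.09, adjusted p = 0.00010). Adam1a fell by Day 12 in both arms, from 3.74 to 3.97 CPM to 1.72 to 2.11 and 1.81 to 2.05 CPM (-0.92 ± 0.20 in both, adjusted p = 0.0011 and 0.0010), and shares exon sequence on the same strand with Mapkapk5. Adam8 lay between 1.72 and 3.54 CPM and was not called in any comparison. Many of the other 22 Adam genes are known from testis and sperm; 12 of these 22 had no read in any library and the other 10 had 8 reads or fewer in every library, the highest being Adam5 in a Day 12 +Fgf library.

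The Adamts genes were nearly all expressed, with 18 of 19 above the filter, and their subgroups took different paths. Adamts13, the von Willebrand factor protease of liver, was the exception, with 1 read at most. Summed over the family, the level was 207 ± 7.37 CPM in Day 10 tissue, 238 ± 1.28 in Day 12 +Fgf, 231 ± 6.26 in Day 12 +Wnt, 179 ± 11.1 in Day 15 +Fgf and 275 ± 7.35 in Day 15 +Wnt. In Day 15 +Fgf against Day 15 +Wnt tissue 13 of the 18 were lower and 3 higher, against 30.6% and 38.0% of all genes.

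Among the proteoglycan-cutting members, Adamts9 fell and Adamts1, Adamts4 and Adamts5 rose. Adamts9 was at 62.1, 77.9 and 61.4 CPM in Day 10 tissue, 54.0, 54.8 and 49.3 in Day 12 +Fgf and 56.6, 52.2 and 56.1 in Day 12 +Wnt. By Day 15 it stood at 9.51, 11.7 and 14.8 CPM with +Fgf and 30.1, 33.5 and 29.0 CPM with +Wnt. It fell in both arms after Day 12, 4.36-fold with +Fgf (log2 difference -2.12 ± 0.12, adjusted p = 5.9e-10) and less with +Wnt (-0.83 ± 0.12, adjusted p = 1.5e-05), and the difference of -1.30 ± 0.17 passed the test (adjusted p = 1.3e-05). On Day 15 it was lower with +Fgf than with +Wnt (-1.36 ± 0.12, adjusted p = 4.2e-08). The entries A730049H05Rik and Gm15737 overlap its exons on the opposite strand.

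Adamts1 and Adamts5 are neighbours on chromosome 16 (mm10, 85793827 to 85803113 and 85856173 to 85901828, both on the minus strand). Adamts1 was at 21.3, 26.2 and 23.7 CPM in Day 10 tissue, 30.8, 33.1 and 31.2 in Day 12 +Fgf and 17.2, 20.7 and 19.7 in Day 12 +Wnt. The Day 15 libraries lay at 44.1, 40.8 and 41.5 CPM with +Fgf and 56.0, 54.4 and 51.8 CPM with +Wnt. Adamts5 was at 3.75, 3.54 and 3.90 CPM in Day 10 tissue, 6.40, 6.31 and 6.58 in Day 12 +Fgf and 2.83, 2.85 and 3.44 in Day 12 +Wnt. Its Day 15 values were 9.22, 9.62 and 9.19 CPM with +Fgf and 7.07, 6.94 and 5.61 CPM with +Wnt. By Day 12 both rose with +Fgf (log2 differences 0.42 ± 0.08 and 0.74 ± 0.13, adjusted p = 0.00038 and 0.00011), while with +Wnt Adamts1 fell (-0.30 ± 0.08, adjusted p = 0.0042) and Adamts5 differed by -0.27 ± 0.13 (adjusted p = 0.069). From Day 12 to Day 15 both rose in each arm, with +Wnt by 1.48 ± 0.08 (adjusted p = 1.5e-10) and 1.03 ± 0.13 (adjusted p = 1.7e-06). Adamts5 was 2.02-fold higher in Day 12 +Fgf than in Day 12 +Wnt tissue (1.01 ± 0.13, adjusted p = 3.7e-06). They parted on Day 15, when Adamts1 was lower with +Fgf than with +Wnt (log2 difference -0.36 ± 0.08, adjusted p = 0.00090) and Adamts5 higher (0.50 ± 0.13, adjusted p = 0.0020).

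Adamts4 stood higher in the +Fgf arm on both days, at 11.3 to 14.2 CPM on Day 12 and 13.3 to 16.2 on Day 15, against 3.90 to 5.30 and 6.71 to 8.35 CPM with +Wnt (log2 differences 1.35 ± 0.14 and 0.94 ± 0.14, adjusted p = 4.3e-07 and 1.4e-05). From Day 10, where it lay at 4.13 to 4.50 CPM, it rose 2.72-fold by Day 12 with +Fgf (1.45 ± 0.14, adjusted p = 2.8e-07). Adamts15 fell from Day 12 to Day 15 with +Fgf, from 11.2 to 14.8 CPM to 4.94 to 6.87 CPM (-1.12 ± 0.19, adjusted p = 7.7e-05), and was then lower than with +Wnt, where it lay at 14.4 to 21.2 CPM (-1.50 ± 0.19, adjusted p = 1.9e-06). Adamts8, its neighbour on chromosome 9, reached 0.618 to 0.707 CPM with +Fgf and 0.434 to 0.772 CPM with +Wnt on Day 15. Adamts8 fell from Day 12 in both arms (-1.0 ± 0.21, adjusted p = 0.00055, with +Fgf and -1.04 ± 0.21, adjusted p = 0.00028, with +Wnt), although the fall with +Fgf did not pass with the RNA integrity number as a covariate (adjusted p = 0.43). Adamts20 was lower with +Fgf than with +Wnt on both days, by -0.65 ± 0.15 and -0.99 ± 0.15 on the log2 scale (adjusted p = 0.0018 and 2.1e-05).

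The procollagen N-proteinases separated the arms on Day 15. Adamts3, which also processes the lymphatic growth factor VEGF-C, was at 10.5, 12.3 and 15.0 CPM in Day 10 tissue, 18, 18.9 and 12.4 in Day 12 +Fgf and 8.99, 9.95 and 13.0 in Day 12 +Wnt. On Day 15 its level was 1.33, 2.06 and 2.90 CPM with +Fgf and 8.75, 11.9 and 8.49 CPM with +Wnt. The Day 15 +Fgf libraries were the only ones below 8 CPM, and the fall from Day 12 with +Fgf was 7.14-fold (log2 difference -2.84 ± 0.23, adjusted p = 2.8e-08), against -0.13 ± 0.23 with +Wnt (adjusted p = 0.64). On Day 15 Adamts3 was 4.29-fold lower with +Fgf than with +Wnt (-2.10 ± 0.23, adjusted p = 4.3e-07). Adamts2 was at 0.369 to 0.951 CPM in the 12 libraries outside Day 15 +Wnt and at 3.23, 2.46 and 1.96 CPM there, a 3.90-fold rise from Day 12 (1.96 ± 0.23, adjusted p = 9.8e-07), and 3.77-fold above Day 15 +Fgf tissue (-1.91 ± 0.23 for +Fgf minus +Wnt, adjusted p = 1.2e-06). Adamts14 rose in the same group to 0.993 to 1.40 CPM from 0.199 to 0.348 (1.30 ± 0.29, adjusted p = 0.00085), a call lost after quantile normalization (adjusted p = 0.086), and its lower level in Day 15 +Fgf than in Day 15 +Wnt tissue (-1.02 ± 0.29, adjusted p = 0.0055) was lost there too (adjusted p = 0.26) and with the RNA integrity number as a covariate (adjusted p = 0.29). The procollagen genes Col1a1 and Col3a1, whose products such enzymes trim, were highest in Day 15 +Wnt tissue, at 61.5 ± 13.1 and 181 ± 15.0 CPM, as were Adamts2 and Adamts14, while Adamts3 was highest in Day 12 +Fgf tissue.

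Adamts16, Adamts17 and Adamts18 divided by arm. Adamts17 was at 11.8, 8.96 and 10.1 CPM in Day 10 tissue, 7.10, 3.95 and 4.47 in Day 12 +Fgf and 29.6, 29.3 and 27.3 in Day 12 +Wnt. By Day 15 it stood at 3.54, 3.64 and 3.82 CPM with +Fgf and 36.3, 29.4 and 30.8 CPM with +Wnt. It moved in opposite directions from Day 10, up 2.76-fold with +Wnt (log2 difference 1.46 ± 0.16, adjusted p = 1.0e-06) and down with +Fgf (-0.98 ± 0.16, adjusted p = 8.2e-05), was 5.46-fold lower with +Fgf than with +Wnt on Day 12 (-2.45 ± 0.16, adjusted p = 2.1e-09) and was 8.16-fold lower on Day 15 (-3.03 ± 0.16, adjusted p = 6.2e-11). Mutations of ADAMTS17 are known from short stature with small round lenses. Its paralogue Adamts19 fell in +Wnt tissue by Day 12 (-1.19 ± 0.36, adjusted p = 0.0090), and in Day 15 +Fgf tissue replicate 3 stood at 7.63 CPM against 1.47 and 2.27 in the others.

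Adamts16 was at 0.273, 0.201 and 0.458 CPM in Day 10 tissue, 1.14, 0.765 and 1.34 in Day 12 +Fgf and 4.34, 4.52 and 3.57 in Day 12 +Wnt. The Day 15 libraries lay at 10.2, 7.14 and 9.05 CPM with +Fgf and 23.1, 22.4 and 21.0 CPM with +Wnt. By Day 12, with 0.3 added to each value, it rose 7.36-fold with +Wnt (2.88 ± 0.20, adjusted p = 4.7e-09) and 2.26-fold with +Fgf (1.18 ± 0.20, adjusted p = 9.2e-05). By Day 15 it rose again with +Fgf (2.73 ± 0.20, adjusted p = 7.7e-09) and with +Wnt (2.34 ± 0.20, adjusted p = 2.1e-08). Adamts16 was higher with +Wnt on both days, 3.25-fold on Day 12 and 2.49-fold on Day 15 (log2 differences -1.70 ± 0.20 and -1.32 ± 0.20 for +Fgf minus +Wnt, adjusted p = 1.7e-06 and 1.5e-05). Its paralogue Adamts18 went the other way, at 0.954, 0.869 and 0.535 CPM in Day 10 tissue, 9.0, 6.24 and 12.3 in Day 12 +Fgf and 2.01, 1.32 and 2.05 in Day 12 +Wnt. Its Day 15 values were 19.3, 20.1 and 25.4 CPM with +Fgf and 4.22, 4.18 and 5.05 CPM with +Wnt. It rose 8.55-fold by Day 12 with +Fgf (3.1 ± 0.23, adjusted p = 1.5e-08) and less with +Wnt (0.95 ± 0.23, adjusted p = 0.0018), and then by about the same amount in both arms (1.25 ± 0.23, adjusted p = 0.00018, with +Fgf and 1.21 ± 0.23, adjusted p = 0.00017, with +Wnt). Adamts18 was higher with +Fgf on both days, 4.42-fold on Day 12 (2.15 ± 0.23, adjusted p = 6.4e-07) and 4.57-fold on Day 15 (2.19 ± 0.23, adjusted p = 2.4e-07). Neither gene's change after Day 12 differed between arms past the test (adjusted p = 0.27 for Adamts16 and 0.92 for Adamts18).

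The last 4 members were of low to middle level. Adamts12, which cuts the cartilage matrix protein COMP, was high in the same 2 groups as Mmp9 and Timp1, at 7.04, 5.73 and 11.4 CPM in Day 12 +Fgf and 9.62, 9.55 and 9.54 in Day 15 +Wnt tissue, against 2.54 to 3.54 CPM in the other 9 libraries. It rose 2.60-fold from Day 10 to Day 12 with +Fgf (log2 difference 1.38 ± 0.19, adjusted p = 1.6e-05), was higher with +Fgf than with +Wnt on Day 12 (1.17 ± 0.19, adjusted p = 7.6e-05) and lower on Day 15 (-1.54 ± 0.19, adjusted p = 2.0e-06). Its change after Day 12 was -1.24 ± 0.19 with +Fgf (adjusted p = 3.7e-05) and 1.47 ± 0.19 with +Wnt (adjusted p = 3.7e-06). Adamts7 and Adamts10 rose in both arms by Day 12, Adamts7 by 0.40 ± 0.09 with +Fgf and 0.38 ± 0.09 with +Wnt (adjusted p = 0.0021 and 0.0024) and Adamts10 by 0.57 ± 0.07 and 0.46 ± 0.07 (adjusted p = 8.1e-06 and 5.9e-05), and both were lower with +Fgf than with +Wnt on Day 15. Adamts6 lay between 2.43 and 5.89 CPM and was also lower with +Fgf on Day 15 (-0.69 ± 0.19, adjusted p = 0.0035).

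**Figure D5:**
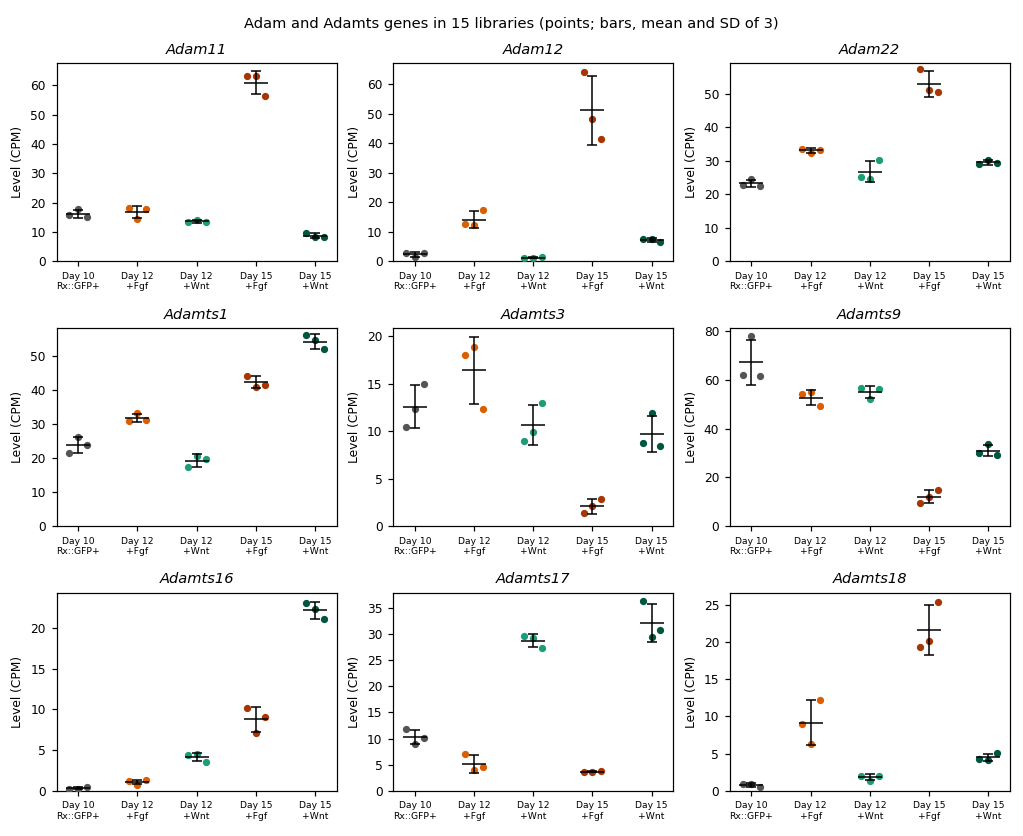
Level in CPM (y axes, from 0) of 3 Adam and 6 Adamts genes in 15 libraries by group (x axes); points are libraries, and bars give the mean and SD of 3. Adam11, Adam12 and Adamts18 are highest in Day 15 +Fgf, Adamts1 and Adamts16 in Day 15 +Wnt, and Adamts17 in both +Wnt groups, while Adamts3 and Adamts9 are lowest in Day 15 +Fgf tissue.

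Genes that activate, anchor or regulate these enzymes were read from lists chosen alongside them. In the plasminogen system, whose protease plasmin activates several pro-MMPs, 5 of 6 tested genes were higher and none lower in Day 12 +Fgf than in Day 10 tissue, and 6 of 6 were higher than in Day 12 +Wnt tissue, against 27.9% and 26.3% of all genes. Plat, the tissue plasminogen activator, went from 25.1 ± 2.03 CPM to 116 ± 21.0 and back to 44.7 ± 0.37 in the +Fgf arm, and Plau, the urokinase, from 2.48 ± 0.04 to 19.7 ± 7.56 and 2.69 ± 0.73 CPM. The products of AP-1 genes bind the motif printed above, and those of Ets genes bind other letters: AGGAAGT, searched on either strand, was in 9.35% of all windows and in those of 7 of the 49 genes. The AP-1 and Ets genes were counted together, so the counts are not of AP-1 genes alone. Of 11 tested, 7 were higher (27.9% of all genes) and 1 lower (27.8%) in Day 12 +Fgf than in Day 10 tissue. Against Day 12 +Wnt tissue, 9 were higher in Day 12 +Fgf and none lower (26.3% and 25.2% of all genes). In Day 12 +Wnt against Day 10 tissue, 9 were lower and none higher (29.6% and 30.6%). Among them Junb was at 8.4 ± 1.39 CPM in Day 10, 17.5 ± 4.42 in Day 12 +Fgf, 1.41 ± 0.26 in Day 12 +Wnt, 5.85 ± 1.25 in Day 15 +Fgf and 4.42 ± 0.17 in Day 15 +Wnt tissue, and Fosl2 at 10.6 ± 4.89, 23.1 ± 5.16, 5.27 ± 0.61, 10.7 ± 0.58 and 21.9 ± 1.66 CPM in the same order. Fosl2 was thus high in the 2 groups where Mmp9 was high. Other genes of the list did not share this pattern: Junb was lower in Day 15 +Wnt than in Day 10 tissue, and Etv1 and Etv5 were higher with +Fgf than with +Wnt on Day 15. Mmp9 had no window among those searched, so the motif was not looked for in its promoter. The part of Fosl2 in the level of Mmp9 was not tested.

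Some partners of Adam10 and Adam17, Tspan15 and Tspan10 among them, changed more than the enzymes did, and not all in the same direction. Over the 9 listed partners, the median log2 difference between +Fgf and +Wnt tissue was 0.34 on Day 12 and 0.026 on Day 15. Tspan15, a tetraspanin that steers ADAM10 towards N-cadherin, was at 69.4 ± 11.2 CPM in Day 12 +Fgf and 138 ± 16.7 in Day 15 +Fgf tissue, against 10.3 ± 1.37 and 10.3 ± 1.17 with +Wnt (log2 differences 2.71 ± 0.13 and 3.70 ± 0.13, adjusted p = 6.6e-11 and 5.9e-13). Tspan10, another tetraspanin of this group, was at 78.9 ± 9.54 and 239 ± 35.5 CPM with +Wnt and 11.3 ± 1.29 and 7.52 ± 0.42 CPM with +Fgf (-2.77 ± 0.13 and -4.93 ± 0.13, adjusted p = 3.1e-11 and 1.0e-14). Hbegf, an EGF family ligand shed by ADAMs, was at 44.2 ± 13.1 CPM in Day 12 +Fgf and 2.06 ± 0.28 in Day 12 +Wnt tissue. Over the lists, 4 of 9 such partners were higher and 4 lower in Day 12 +Fgf than in Day 10 tissue. Of 4 tested EGF family ligands, 1 was higher and none lower. Among all genes, 27.9% were higher and 27.8% lower in that comparison. Vcan, the versican that several Adamts enzymes cut, fell from 205 ± 10.9 to 65.3 ± 18.3 CPM with +Fgf after Day 12 and rose from 97.4 ± 14.8 to 190 ± 29.0 CPM with +Wnt.

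Further listed genes past a log2 difference of 1 and at 10 CPM or more in the higher group are given by comparison, with the log2 difference after each name. In Day 12 +Fgf against Day 10 tissue, the Ets genes Etv1 (1.68), Etv4 (2.58) and Etv5 (1.36), the procollagen C-proteinase gene Bmp1 (1.16) and Thbs1 (1.02) were higher, as were Hbegf (1.78) and Tspan15 (1.78), and Tspan10 (-2.08) and A2m (-1.12), which encodes a broad protease trap, were lower. With +Wnt, Ncan (2.16), which encodes the proteoglycan neurocan, was higher than on Day 10, and Fos (-2.78), Etv5 (-1.47), Ets1 (-1.15), A2m (-2.60), Thbs1 (-1.06), Hbegf (-2.42), Vcan (-1.38) and Rhbdf1 (-1.41), a trafficking partner of ADAM17, were lower. In Day 12 +Fgf against Day 12 +Wnt tissue, Etv1 (2.12), Etv4 (2.76), Etv5 (2.83), Ets1 (1.95), the AP-1 gene Jun (1.05), Bmp1 (1.08), Thbs1 (2.08), Sparc (1.01), A2m (1.48), Vcan (1.08) and Rhbdf1 (1.51) were higher, and Ncan (-1.97) and the tetraspanin gene Tspan5 (-1.23) were lower.

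After Day 12 the lists again moved both ways in the +Fgf arm. With +Fgf, Ncan (2.45), A2m (1.98) and Tspan17 (1.29) rose, and Ets1 (-2.17), Junb (-1.53), Fosl2 (-1.08), Bmp1 (-1.61), Thbs1 (-2.64) and Hbegf (-2.38) fell. With +Wnt, Adamtsl1 (2.55), an Adamts-like gene without a protease domain, the convertase gene Pcsk6 (1.37), Thbs2 (1.87), A2m (3.34), Bsg (1.22), which encodes an inducer of MMPs, Etv4 (1.49), Fosl2 (2.0), Tspan10 (1.59) and Ncan (1.44) rose. In Day 15 +Fgf against Day 15 +Wnt tissue, Tspan14 (1.38), Tspan17 (1.58), Etv1 (2.4) and Etv5 (2.38) were higher. Lower in that comparison were Pcsk6 (-3.01), Thbs2 (-2.48), Adamtsl1 (-2.21), Vcan (-1.56), Tspan5 (-1.55) and Fosl2 (-1.02).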

How the data were processed

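Total RNA of 15 libraries in 5 groups of 3 was made into mRNA libraries and sequenced by the authors, who aligned the reads to mm10 with TopHat2 2.0.8b and the UCSC transcriptome; bcl2fastq 1.8.4, FastQC 0.10.1, Cufflinks 2.1.1, Cuffdiff and edgeR 3.2.4 are also named in the submitters' processing notes or the methods. The strand setting of the counting is not given in the sources used here. The deposited signal values are read counts per gene that the authors scaled per library to normalized CPM, with column sums of 936418 to 1075448. Whole reads were recovered from them: 100% of non-zero values were whole multiples of the value of 1 read within a tolerance of 0.001.

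Genes at 1 CPM of the column total or more in at least 3 libraries were fitted as log2(value + 0.3) with limma 3.58.1 (R 4.3.3; 5 group means, trend, two-sided, Benjamini-Hochberg adjustment within a comparison, threshold 0.05). The count test of edgeR 4.0.16 (quasi-likelihood) on the recovered reads was an alternative, and called 7764, 8330, 7842, 9262, 7132, 9318 and 6236 genes in the 7 comparisons, in the order Day 12 +Fgf and Day 12 +Wnt against Day 10, Day 15 against Day 12 with +Fgf and with +Wnt, +Fgf against +Wnt on Day 12 and on Day 15, and the difference between the arms in the change after Day 12. Other alternatives were pseudocounts, filters, scalings, the RNA integrity number, a replicate block and leaving out each library. Per-kb levels used merged exon lengths of the mm10 annotation, and counts of 0 were given a limit of 3 reads per library, which covers counting error only. The scripts were tested on simulated data. Figures were drawn with matplotlib 3.10.9.

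Members were taken by symbol and not by their values. Earlier results of these data were known when they and the gene lists were chosen, so list counts are descriptions and no list was tested. Every member past the filter was named, with its difference for each comparison it passed with a log2 change of 1 or more; related genes were named by the same rule at 10 CPM or more in the higher group, and Vcan and the marker genes beside results they touch. The replicates are biological triplicates per the labels, which do not say which aggregates were pooled. Exons of 20 of the 79 genes overlap another gene, which leaves their reads uncertain. Some related genes that meet this rule are not reported here.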

Additional observations from a re-analysis of the deposited data

Results flagged for a closer look

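For 15 genes the change from Day 12 to Day 15 differed between the +Fgf and +Wnt arms by more than 1 on the log2 scale, by limma's test of that difference itself; values are the change with +Fgf minus the change with +Wnt. Among the Mmp genes it was -10.0 for Mmp9, -2.79 for Mmp10, -1.74 for Mmp3, -1.44 for Mmp2 and 1.40 for Mmp24. Among the inhibitors it was -2.94 for Timp3, -2.66 for Timp1 and -1.35 for Timp2. Among the Adamts genes it was -2.71 for Adamts12, -2.71 for Adamts3, -2.46 for Adamts2, -1.93 for Adamts14, -1.30 for Adamts9 and -1.08 for Adamts1, and for Adam11 it was 2.47. The value of Mmp3 did not pass edgeR's quasi-likelihood test (adjusted p = 1) or the fit with the RNA integrity number (adjusted p = 0.11), that of Mmp10 did not pass edgeR's test (adjusted p = 0.14), and that of Adamts14 did not pass with the RNA integrity number (adjusted p = 0.090). No search for single outlying libraries was made within groups of 3.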

How the results depend on the processing

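Of 222 recomputed counts of called genes, 218 stayed within 1.5 times the reported count. The other 4 came from the RNA integrity number as a covariate: from Day 12 to Day 15 with +Fgf, 3591 genes in all and 16 metalloproteinase genes were called in place of 7899 and 29, and for the difference between the arms, 3842 and 18 in place of 6636 and 29. The integrity number is lower in Day 15 +Fgf than in Day 12 +Fgf and Day 15 +Wnt libraries, and the cause was not tested. Of 1399 recomputed values of the 89 differences that passed with a size of 1 or more on the log2 scale, in 25 genes, none turned its direction and 15 no longer passed the test, 6 of them with the integrity number and 4 on leaving out a library. Among called differences of any size, quantile normalization turned the sign of 1, Timp1 from Day 12 to Day 15 with +Wnt, which was then not called, and lost 3, 5, 2, 7, 1, 3 and 4 calls in the 7 comparisons. Replicate numbers did not pair the libraries (correlation of same-numbered deviations -0.253 to 0.245 over 30 pairs, 7 above 0.1). With the replicate block, 31, 21, 29, 28, 28, 31 and 28 metalloproteinase genes and 7688, 8291, 7837, 9387, 7094, 9486 and 6555 genes in all were called. Adamts2 in Day 12 +Fgf against Day 10 tissue lay at the threshold (adjusted p = 0.0499) and was lost in that fit (adjusted p = 0.062). Genes at a few reads per library were given by their reads.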
